A study of Mus musculus with 30 samples.

Results

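Notch signalling passes between neighbouring cells. A Delta-like or Jagged ligand on the sending cell binds a Notch receptor on the receiving cell, proteases free the receptor's intracellular domain, and this domain joins RBPJ in the nucleus to switch on repressors of the Hes and Hey families. In muscle the pathway holds satellite cells and myoblasts undifferentiated, in part by opposing the myogenic factor MyoD, and it is also known from reserve cells, the mononucleated cells that stay undifferentiated in a culture of myotubes. Hes6 stands apart from the other members of its family, since it is known to act against Hes1 and to be expressed as myoblasts differentiate.

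The 10 genes described here are the receptor genes Notch1, Notch2 and Notch3, the ligand genes Dll1, Jag1 and Jag2, and the effector genes Hes1, Hes6, Hey1 and Heyl. They were chosen by name out of 30284 mouse genes, and all 10 passed the filter on low counts in each fit. The RNA sequencing described here covered 30 libraries in 10 groups of 3 separate cultures. The study describes more libraries than these, from different batches of C2C12 cells, and reports that the genes regulated often differed between batches. The sample titles name no batch. C2C12, an established mouse myoblast line, was taken as confluent myoblasts on plastic just before serum withdrawal (day 0) and after 4 and 7 days in low-serum medium on plastic, on unpatterned gelatin hydrogel or on micropatterned gelatin hydrogel. Primary myoblasts from the hindlimb muscle of 3 C57/Bl6J mice aged 8 weeks were taken at day 0, with plastic as the labelled substrate, and on patterned gelatin at the later days. The methods describe growth of the primary cells on dishes coated with extracellular matrix gel before they were moved to gelatin and name no plastic dish for them. The methods describe a brief trypsin step to enrich for myotubes for the cultures of days 4 and 7 only, so this step and differentiation cannot be told apart between day 0 and the later days. For patterned gelatin, the change of substrate cannot be told apart from them either. In such bulk samples, fewer cells of a type and less RNA per cell cannot be told apart, and reserve cells were not sequenced on their own.

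Each library held 13.1 to 59.4 M (mega) estimated counts (median 27.3 M). The cultures were myogenic at every day, with Myod1 at 112 to 953 TPM (a transcript level corrected for length and depth) over all 30 libraries. All 6 myotube markers rose and all 6 proliferation markers fell from day 0 to day 4 in C2C12 cells on either substrate compared and in primary cells. Of the 8 markers of satellite and reserve cells, Calcr was listed at 0 in every library and Chrdl2 reached at most 0.331 TPM, while Pax7, the satellite cell transcription factor, was present in every library. Sdc4 lay at 89.9 to 237 TPM in C2C12 libraries, where Vcam1 had the next highest maximum (65.4 TPM). In primary libraries Sdc4 lay at 52.1 to 527 TPM and Pax7 at 2.21 to 49.6 TPM. The summed level of this list, given below, thus weighs Sdc4 heavily. Of the 8 endothelial genes, which could carry Notch ligands and receptors from vessels, Cdh5, Kdr, Emcn, Erg and Sox17 reached at most 0.168 TPM, Tek 0.401 TPM and Tie1 0.884 TPM in any library. Pecam1, the endothelial adhesion molecule, lay at 1.61 to 13.7 TPM in C2C12 and at 1.88 to 3.36 TPM in primary libraries. The summed level of the endothelial genes was highest in 1 C2C12 library on patterned gelatin at day 7 (15.0 TPM) and at most 6.58 TPM in every other group. Genes known from fibroblasts were higher in C2C12 than in primary libraries, with sums over the list of 191 to 415 TPM and 4.44 to 17.1 TPM and Ly6a alone at 107 to 349 TPM and 2.10 to 13.4 TPM. Single mural genes reached higher levels in one cell type or the other, and their sums overlapped (40.5 to 76.0 TPM in C2C12 and 28.9 to 59.5 TPM in primary libraries). Pdgfrb lay at 29.1 to 60.5 TPM in C2C12 and 0.0345 to 1.80 TPM in primary libraries, while Rgs5 reached 0.325 TPM in C2C12 and 58.9 TPM in primary libraries and Abcc9 2.65 and 49.9 TPM. Their part in the differences between the cell types was not tested.

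Stretches of 3 promoters are shown because Hes6, Dll1 and Jag1 are the members that rose in C2C12 cells. They are RefSeq sequences on GRCm38.p6 (the assembly of mm10), all on the minus strand and written 5′ to 3′. Capitals mark E-boxes (CANNTG), the short motifs that MyoD and related factors are known to bind.
Hes6, chr1:91414191-91414264, ending 153 bases before the start site: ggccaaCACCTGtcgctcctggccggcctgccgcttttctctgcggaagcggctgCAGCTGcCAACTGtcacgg
Dll1, chr17:15377053-15377167, ending 121 bases before the start site: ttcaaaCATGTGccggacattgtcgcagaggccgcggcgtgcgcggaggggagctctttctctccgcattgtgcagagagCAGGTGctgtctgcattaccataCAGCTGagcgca
Jag1, chr2:137116585-137116614, ending 65 bases before the start site: ccgcgtttcatgCAGCTGatctgaaaggga
The GENCODE gene model of Jag1 begins 124 bases before this RefSeq start, so its stretch lies within that model. RefSeq promoters were at hand for 7 of the members (Hes6, Dll1, Jag1, Notch1, Notch2, Notch3 and Jag2), and Hes1, Hey1 and Heyl had no entry. The letters CAGCTG, which read the same on both strands, occurred in the 250 bases before a start site of Hes6, Dll1 and Jag1 and of none of the other 4, and so did CANNTG. Of all 27025 genes with such promoters, counted in the same way, 14.7% held CAGCTG and 69.3% held CANNTG, of which CAGCTG is a special case. TGGGAA, the core letters of the RBPJ motif searched on both strands, occurred in none of the 7 and in 24.1% of all genes. These matches describe letters only and were chosen with the direction of the genes known.

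The balance of receptor genes differed between C2C12 and primary myoblasts. On the TPM scale, over protein-coding transcripts, Notch2 (chr3:98013527-98150361) was the leading receptor of C2C12 myoblasts at day 0 with 48.9% ± 1.70 of the summed level of the 3 receptors (SD, n = 3), followed by Notch3 (chr17:32120820-32166852) with 35.0% ± 1.65 and Notch1 (chr2:26457903-26516663) with 16.1% ± 0.36. In primary myoblasts the order was turned, with Notch1 at 51.3% ± 2.70, Notch3 at 28.4% ± 1.14 and Notch2 at 20.4% ± 1.62. The shares of Notch1 ran from 49.3% to 54.3% in primary and from 15.9% to 16.5% in C2C12 libraries, so the groups lay far apart. Protein-coding transcripts were used here because Notch1-201, the full-length transcript, held 40% to 67% of the Notch1 level in a library, and transcripts annotated as non-coding held all of the rest but at most 0.407%, among them the retained-intron transcript Notch1-205 with 2.97% to 10.2%.

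**Figure D1:**
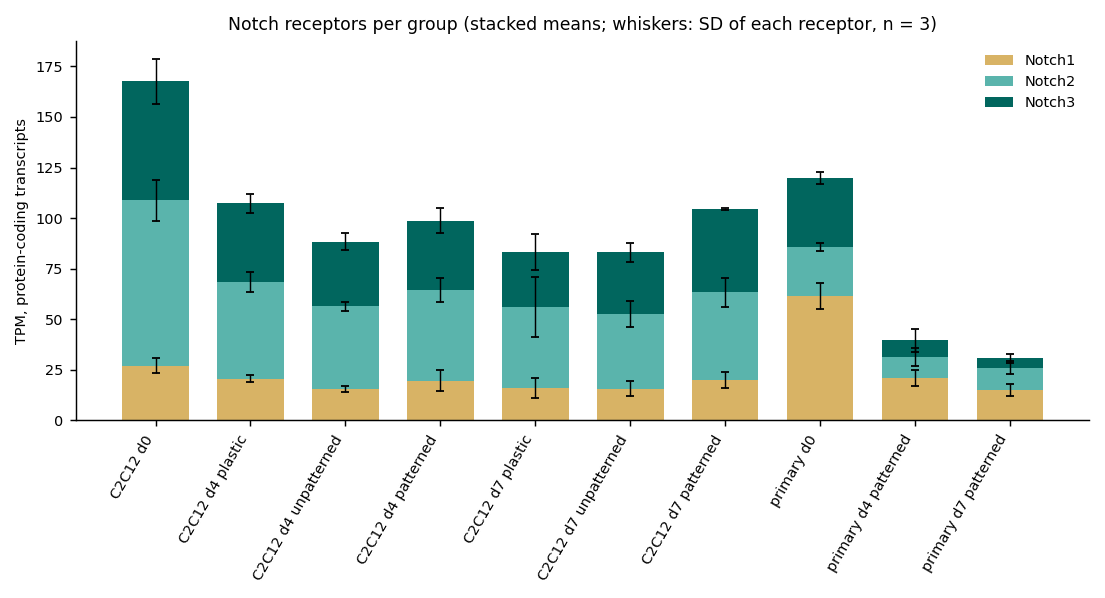
Mean level of Notch1, Notch2 and Notch3 (stacked bars, vertical axis in TPM over protein-coding transcripts) in the 10 groups (horizontal axis), with the SD of each receptor over 3 libraries as whiskers. Notch1 makes up 51.3% of the bar in primary myoblasts at day 0 and 16.1% in C2C12 myoblasts, and both primary day 4 and day 7 bars are lower than any C2C12 bar.

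Among the other members, Hes6 (chr1:91411483-91414038) had the highest gene-level TPM in every group, from 96.8 ± 13.3 (SD, n = 3) in C2C12 myoblasts to 290 ± 41.7 in primary cells at day 4. Hes1 (chr16:30064384-30067796), the classical target of Notch, stood at 79.4 ± 4.85 TPM in C2C12 and 70.6 ± 6.79 TPM in primary myoblasts. The ligand genes at day 0 followed the order Jag2 (chr12:112907819-112929776), Dll1 (chr17:15367354-15376872) and Jag1 (chr2:137081456-137116644) in both cell types, at 28.2, 18.6 and 2.90 TPM in C2C12 and 42.6, 34.9 and 5.55 TPM in primary myoblasts. Heyl (chr4:123233556-123249875) stood at 23.3 TPM in C2C12 and 5.75 TPM in primary myoblasts, and Hey1 (chr3:8663359-8667256) at 14.4 and 4.90 TPM. These gene-level values sum all transcripts, unlike those of the receptors above. Over protein-coding transcripts alone, Dll1 stood at 12.8 TPM in C2C12 and 22.9 TPM in primary myoblasts, and Heyl at 14.8 and 4.93 TPM. The order of the ligand genes was the same. Of the rest of the families, Hes5 was listed at 0 in all 30 libraries, and Dll4, Dlk1 and Hey2 reached at most 0.514 TPM in any library. Others were present, with Dlk2 up to 6.43 TPM in C2C12 and 25.6 TPM in primary libraries. Hes7 reached 4.00 and 1.48 TPM, and Dll3 3.49 and 1.92 TPM.

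The tests below used CPM (a gene's counts over the library total scaled by TMM factors), which compare a gene between libraries and not 1 gene with another. A gene was called where the adjusted p (Benjamini-Hochberg over all genes of a fit) from edgeR's quasi-likelihood test was under 0.05, and each adjusted p given is from that test unless another is named. Fold changes are on the log2 scale with their standard errors (SE), and n = 3 in every group.

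**Figure D2:**
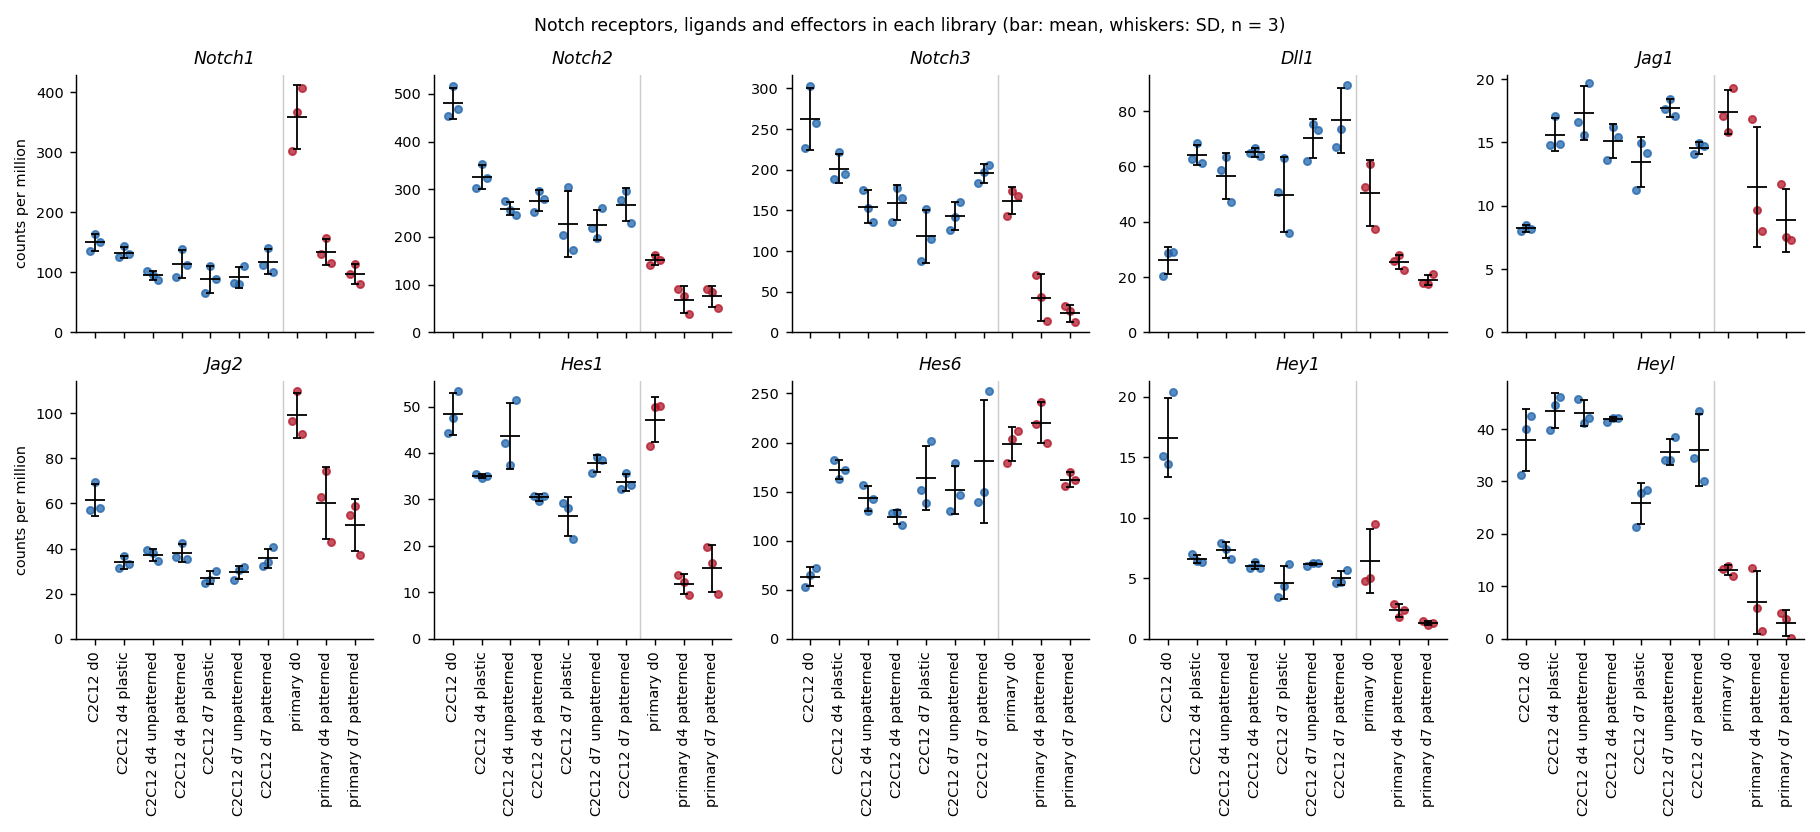
CPM (vertical axes, starting at 0) of the 10 members in all 30 libraries (points, blue for C2C12 and red for primary) by group (horizontal axis, d for day), with the mean and SD of 3 libraries. Dll1 lies at 20.4 to 28.9 CPM in C2C12 at day 0 and at 36.0 to 89.6 CPM in every later C2C12 library, while Notch3 falls to 12.1 to 70.7 CPM in primary cells at days 4 and 7.

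Between day 0 and day 4, Hes6 and the ligand genes Dll1 and Jag1 rose in C2C12 cells, while Jag2, Hes1, Hey1 and Notch2 fell. This held on plastic and on patterned gelatin. On plastic, 7 of the 10 members were called, 3 higher and 4 lower, beside 58.0% of all 14852 genes tested. On patterned gelatin 8 were called, 3 higher and 5 lower, beside 60.1% of all genes. The share of members called was thus near that of all genes at this step. The median log2 fold change of the members was -0.28 on plastic and -0.53 on patterned gelatin, beside 0.00 and -0.02 over all genes. Both comparisons share the day 0 libraries. Genes on the lists of satellite and reserve cell markers and of fibroblast genes also moved at this step. The summed level of the 8 markers of satellite and reserve cells was 328 to 387 TPM at day 0, 174 to 187 TPM on plastic and 215 to 244 TPM on patterned gelatin, and that of the 6 fibroblast genes had means of 383, 296 and 304 TPM, with every day 0 library above every day 4 library on either substrate. Within the fibroblast list Ly6a fell on both substrates while Col1a1 and Dcn rose, so the list did not move as one. Their part in the members' values was not tested.

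Dll1, a ligand known from committed myoblasts, lay at 20.4, 28.8 and 28.9 CPM in the day 0 libraries, at 62.8, 68.4 and 61.4 CPM on plastic at day 4, and at 64.8, 66.8 and 63.6 CPM on patterned gelatin. Every day 4 library lay above every day 0 library. The log2 fold change was 1.30 on plastic (SE 0.18, adjusted p = 3.75e-06) and 1.32 on patterned gelatin (SE 0.18, adjusted p = 2.74e-06). Jag1 lay at 7.97, 8.49 and 8.18 CPM at day 0, at 14.8, 17.1 and 14.9 CPM on plastic and at 13.6, 16.2 and 15.5 CPM on patterned gelatin, again without overlap. It rose by a log2 fold change of 0.92 on plastic (SE 0.11, adjusted p = 5.67e-07) and 0.88 on patterned gelatin (SE 0.11, adjusted p = 9.63e-07). Jag2 moved the other way, from 57.3, 69.7 and 57.8 CPM at day 0 to 31.3, 36.8 and 33.3 CPM on plastic and 36.0, 42.6 and 35.2 CPM on patterned gelatin. It fell by 0.87 (SE 0.11, adjusted p = 2.12e-06) and 0.70 (SE 0.11, adjusted p = 2.70e-05) on the log2 scale. The ligand genes of C2C12 cells thus moved in opposite directions.

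Hes6 rose from 53.0, 65.3 and 71.8 CPM at day 0 to 182, 163 and 172 CPM on plastic and 128, 129 and 116 CPM on patterned gelatin. All 6 of these day 4 libraries exceeded the highest day 0 library. The log2 fold change was 1.44 on plastic (SE 0.19, adjusted p = 2.98e-06) and 0.97 on patterned gelatin (SE 0.19, adjusted p = 0.000228). Hey1, a repressor and direct Notch target, had the lowest log2 fold change of the 10, from 15.1, 14.4 and 20.4 CPM at day 0 to 6.97, 6.38 and 6.37 CPM on plastic and 5.87, 6.35 and 5.86 CPM on patterned gelatin. It fell by 1.34 on plastic (SE 0.16, adjusted p = 5.20e-07) and by 1.46 on patterned gelatin (SE 0.16, adjusted p = 1.67e-07), and the groups did not overlap. Hes1 lay at 44.3, 47.5 and 53.3 CPM at day 0, at 35.4, 34.6 and 35.1 CPM on plastic and at 30.8, 29.6 and 30.8 CPM on patterned gelatin. It fell by 0.47 on plastic (SE 0.11, adjusted p = 0.00132) and by 0.67 on patterned gelatin (SE 0.11, adjusted p = 3.68e-05). Heyl, another target of Notch, was not called, with log2 fold changes of 0.20 (adjusted p = 0.173) and 0.14 (adjusted p = 0.319).

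The receptor genes had log2 fold changes below 0 in both comparisons, and Notch2 was called in each. Notch2 lay at 455, 517 and 469 CPM at day 0, at 302, 352 and 323 CPM on plastic and at 253, 297 and 279 CPM on patterned gelatin. It fell by 0.56 on plastic (SE 0.16, adjusted p = 0.00411) and by 0.80 on patterned gelatin (SE 0.16, adjusted p = 0.000188), and no day 4 library of either reached the lowest day 0 library. Notch3 stood at 227, 303 and 257 CPM at day 0 and at 135, 178 and 166 CPM on patterned gelatin, where it fell by 0.71 (SE 0.16, adjusted p = 0.000865). On plastic its libraries stood at 188, 222 and 194 CPM, a log2 fold change of -0.38 that missed the threshold (adjusted p = 0.0504) and passed with DESeq2 (adjusted p = 0.0422). Notch1 had log2 fold changes of -0.18 (adjusted p = 0.384) and -0.39 (adjusted p = 0.0555).

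**Figure D3:**
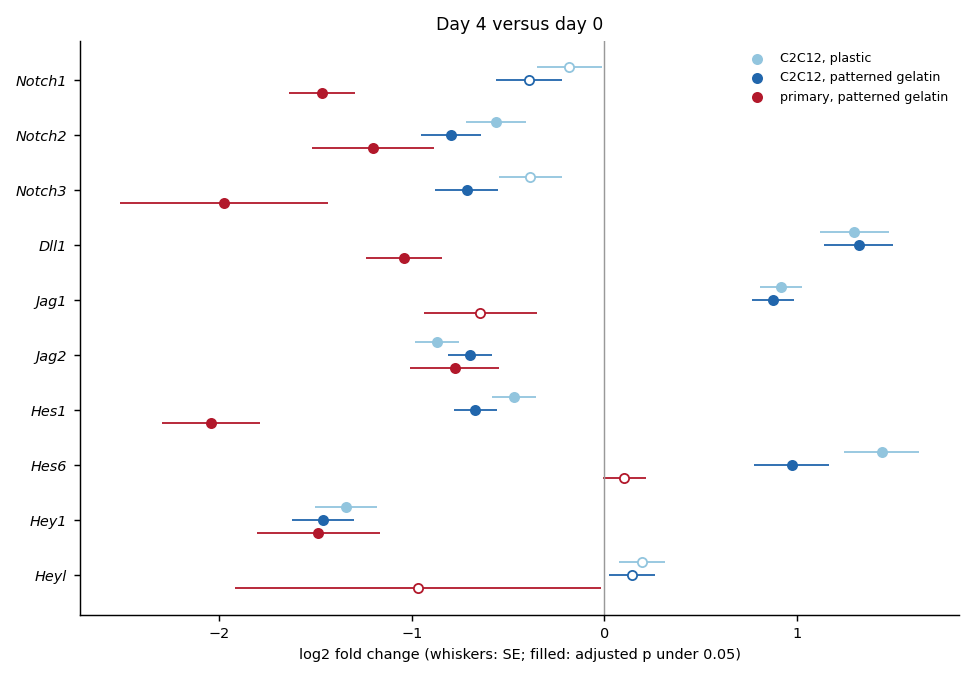
Log2 fold change from day 0 to day 4 (horizontal axis, whiskers are SE) of the 10 members (vertical axis) in C2C12 on plastic, C2C12 on patterned gelatin and primary cells on patterned gelatin, with filled points for an adjusted p under 0.05. Dll1 lies at 1.30 and 1.32 in C2C12 and at -1.04 in primary cells, while Hey1 lies between -1.48 and -1.34 in all 3.

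Of the 46 other genes of a wider Notch pathway list, 40 were tested, and Dll4, Dlk1, Hes5, Hey2, Mfng and Dtx1 did not pass the filter on low counts. At day 4, 8 of the 40 rose and 10 fell on plastic, beside 58.0% of all genes called, and 11 rose and 12 fell on patterned gelatin, beside 60.1%. The share of these genes called was thus somewhat below that of all genes on plastic and near it on patterned gelatin. Fbxw7, the ubiquitin ligase subunit that marks the Notch intracellular domain for destruction, rose by a log2 fold change of 2.27 on plastic (SE 0.11, adjusted p = 8.44e-13) and 2.21 on patterned gelatin. Neurl1a, a ubiquitin ligase of Notch ligands, rose by 2.23 and 2.19, and Psen2, a presenilin of the gamma-secretase that cuts the receptor, by 1.42 and 1.49. Lfng, the Lunatic fringe glycosyltransferase that adds sugars to the receptor, had log2 fold changes of -1.84 and -2.06 and was called in both. On patterned gelatin, the ligand ubiquitin ligases (3 higher and 1 lower of 4 tested), the proteases (3 and 3 of 10) and the nuclear complex (1 and 4 of 10) each had genes called in both directions. The bHLH effectors and the ligands did so only with the members counted in, since Hes6, Dll1 and Jag1 were the genes that rose there. Of 8 inhibitors and feedback genes, 4 rose and none fell on each substrate, a share near that of all genes called.

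In primary cells 7 members fell from day 0 to day 4 and none rose, beside 42.6% of all 14360 genes tested. The members' median log2 fold change was -1.12, beside -0.04 over all genes. The summed level of the satellite and reserve cell markers was 557 to 695 TPM at day 0 and 108 to 190 TPM at day 4, and its part was not tested. Notch1 lay at 302, 367 and 408 CPM at day 0 and at 130, 157 and 116 CPM at day 4, without overlap, and fell by 1.47 on the log2 scale (SE 0.17, adjusted p = 0.000277). Hes1 went from 41.5, 49.9 and 50.1 CPM to 13.8, 12.3 and 9.45 CPM, a fall of 2.04 (SE 0.26, adjusted p = 0.000370). All day 4 values of both genes lay below every day 0 value.

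Notch3 went from 143, 174 and 168 CPM at day 0 to 70.7, 44.0 and 13.5 CPM at day 4, and fell by 1.97 (SE 0.54, adjusted p = 0.0174). Notch2 went from 141, 163 and 152 CPM to 91.4, 76.4 and 37.9 CPM, and fell by 1.20 (SE 0.32, adjusted p = 0.0149). The groups did not overlap for either gene, but the day 4 libraries spread widely, and replicate 3 was lowest in both. Dll1 fell from 52.7, 60.8 and 37.4 CPM to 25.7, 27.9 and 22.7 CPM, by 1.04 on the log2 scale (SE 0.20, adjusted p = 0.00322). Jag2 fell by 0.78 (SE 0.23, adjusted p = 0.0241), from 96.4, 110 and 91.0 CPM to 63.0, 74.3 and 42.8 CPM, and Hey1 by 1.48 (SE 0.32, adjusted p = 0.00552), from 4.79, 4.99 and 9.46 CPM to 2.88, 1.82 and 2.34 CPM. The call of Jag2 was lost without any 1 of 4 libraries (day 0 replicates 1 and 2 and day 4 replicates 1 and 3), and that of Notch3 without day 4 replicate 2.

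Hes6, Jag1 and Heyl were not called in primary cells. Hes6 lay at 179, 204 and 212 CPM at day 0 and at 219, 242 and 200 CPM at day 4 (log2 fold change 0.10, SE 0.11, adjusted p = 0.490), so the groups overlapped, above every C2C12 library of day 0. Jag1 lay at 17.1, 15.8 and 19.3 CPM and then at 16.9, 9.65 and 7.98 CPM (log2 fold change -0.64, SE 0.29, adjusted p = 0.108). The main tests did not pair primary libraries by replicate number. With the number as a block, Jag1 was called (log2 fold change -0.72, adjusted p = 0.0210), which makes 8 members. Heyl lay at 13.2, 13.9 and 12.05 CPM and then at 13.4, 5.89 and 1.51 CPM (log2 fold change -0.97, SE 0.95, adjusted p = 0.450).

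Of the 40 other pathway genes, 8 rose and 7 fell in primary cells at day 4, a share near the 42.6% of all genes called. Rbpj, which encodes the DNA-binding partner of the Notch intracellular domain, fell from 392, 367 and 282 CPM to 96.4, 93.4 and 74.5 CPM, by 2.03 on the log2 scale (SE 0.18, adjusted p = 7.22e-05). Dlk2, a non-canonical Delta-like gene, fell by 5.22 (SE 0.38), while Kat2b, an acetyltransferase of the nuclear complex, rose by 1.59 (SE 0.13) and Neurl1a by 2.93 (SE 0.27). In C2C12 cells Rbpj lay at 117, 107 and 99.3 CPM at day 0, and so lower than in any primary library of that day.

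The change from day 0 to day 4 on patterned gelatin differed between the cell types for 5 of the 10 members, beside 20.5% of all 15455 genes tested. All 5 had the lower change in primary cells. This fit of all 30 libraries, also used within each day below, shared its spread per gene between the cell types. The common biological coefficient of variation (the spread between cultures beyond counting) was 0.119 in the C2C12 fit and 0.293 in the primary fit. The spread of primary cells is thus understated here, and the SE of the Jag1 difference lay below that of its primary change alone (0.29). The difference in log2 fold change (primary less C2C12) was -2.31 for Dll1 (SE 0.26, adjusted p = 6.45e-07), -1.47 for Jag1 (SE 0.28, adjusted p = 0.000392) and -1.32 for Hes1 (SE 0.25, adjusted p = 0.000354). It was -1.03 for Notch1 (SE 0.26, adjusted p = 0.00580) and -0.82 for Hes6 (SE 0.24, adjusted p = 0.0176). Dll1 thus rose in C2C12 and fell in primary cells, and the call for Hes6 was lost without C2C12 day 0 replicate 1 (adjusted p = 0.0744) or primary day 4 replicate 3 (adjusted p = 0.0577). With the replicate number as a block, Notch3 (-1.49, adjusted p = 0.00530) and Heyl (-1.45, adjusted p = 0.0315) were called as well. The difference for Hey1 was 0.01 (SE 0.34, adjusted p = 0.996) and for Jag2 -0.02 (SE 0.23, adjusted p = 0.971). The day 0 cultures of the cell types also differed in other genes. The differentiation factors (Myod1, Myog, Mymk, Mymx and Mef2c) summed to 1251 to 1937 TPM in primary and 370 to 470 TPM in C2C12 libraries of day 0. The proliferation markers summed to 302 to 375 TPM and 964 to 1131 TPM. Their part in the differences between the cell types was not tested.

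The cell types also differed within each day. At day 0, 8 members differed, beside 57.5% of all genes, with Hes6 (log2 fold change of primary over C2C12 1.65, SE 0.18), Notch1 (1.26, SE 0.19), Jag1 (1.08, SE 0.20), Dll1 (0.95, SE 0.18) and Jag2 (0.69, SE 0.17) higher in primary myoblasts. Notch2 (-1.66, SE 0.24), Heyl (-1.54, SE 0.48) and Hey1 (-1.37, SE 0.22) were lower there. At day 4 on patterned gelatin, 8 members differed, beside 50.6% of all genes, with Hes6 (0.83, SE 0.17) and Jag2 (0.66, SE 0.17) higher in primary cells and 6 lower. Heyl (-2.59, SE 0.50), Notch2 (-2.01, SE 0.24) and Notch3 (-1.90, SE 0.35) had the lowest values, and Dll1, Hes1 and Hey1 each stood at -1.36. The block on replicate numbers added Jag1 (-0.44, adjusted p = 0.0150). At day 7, 8 members differed, beside 51.4% of all genes, with Jag2 (0.50, SE 0.17) higher and 7 lower, from Jag1 (-0.71, SE 0.20) to Heyl (-3.63, SE 0.55). The groups overlapped for Jag2, at 55.0, 59.1 and 37.2 CPM in primary and 32.4, 34.1 and 40.5 CPM in C2C12 cells. Dll1 was thus higher in primary than in C2C12 cells at day 0 and lower at days 4 and 7. The day 0 libraries of the cell types did not overlap for Dll1, nor did those of day 4 or day 7.

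From day 4 to day 7 on plastic, the receptor genes fell together in C2C12 cells. On plastic 5 members fell and none rose, beside 14.8% of all genes. Notch3 went from 188, 222 and 194 CPM to 87.5, 152 and 115 CPM, a fall of 0.76 on the log2 scale (SE 0.16, adjusted p = 0.00500), and Heyl from 39.8, 44.6 and 46.2 CPM to 21.3, 27.9 and 28.3 CPM, a fall of 0.74 (SE 0.12, adjusted p = 0.000660). Neither gene's groups overlapped. Notch1 fell by 0.58 (SE 0.17, adjusted p = 0.0310), Notch2 by 0.50 (SE 0.16, adjusted p = 0.0366) and Hes1 by 0.40 (SE 0.11, adjusted p = 0.0243). Notch2 lay at 302, 352 and 323 CPM at day 4 and at 204, 306 and 173 CPM at day 7, so its groups overlapped. Leaving out 1 library lowered the count to 2 (without any 1 of the day 4 libraries) or 3 (without day 7 replicate 1 or 3), and Heyl and Notch3 were called each time. The summed level of the fibroblast genes also was lower without overlap, at 191 to 269 TPM against 282 to 304 TPM (Ly6a and Col1a1 fell by the test, 2 of 4 tested), while that of the satellite and reserve cell markers overlapped (174 to 187 and 179 to 233 TPM). Their part in the change was not tested.

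On the gelatin substrates no member was called between day 4 and day 7. On unpatterned gelatin edgeR called 0 of 10, beside 2.92% of all genes, with 2 at an unadjusted p under 0.05 and 0 called by DESeq2. On patterned gelatin edgeR called 0, beside 20.3% of all genes, with 1 at an unadjusted p under 0.05 and 1 called by DESeq2, namely Hes6 (log2 fold change 0.52, adjusted p = 0.0359 from DESeq2). Hes6 lay at 128, 129 and 116 CPM at day 4 and at 140, 150 and 253 CPM at day 7 on patterned gelatin, with replicate 3 far above the others. Without patterned day 7 replicate 1 edgeR called Hes6 (0.69, adjusted p = 0.0158), and without replicate 2 it called Hes6 and Heyl. Notch3 on patterned gelatin lay at 135, 178 and 166 CPM at day 4 and at 183, 197 and 205 CPM at day 7 (log2 fold change 0.27, adjusted p = 0.238).

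**Figure D4:**
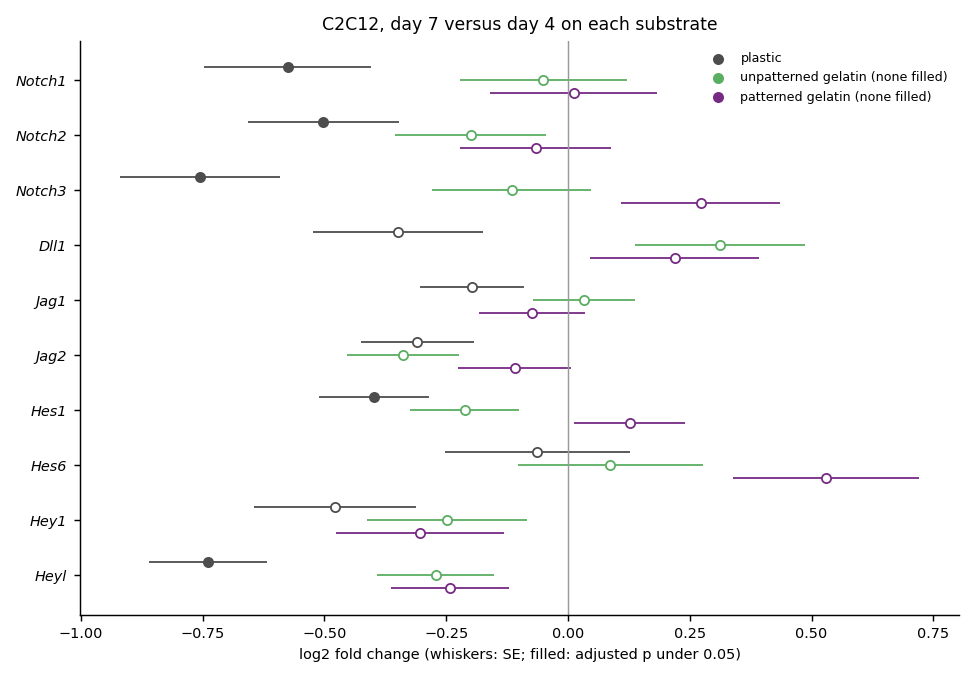
Log2 fold change from day 4 to day 7 in C2C12 cells (horizontal axis, whiskers are SE) of the 10 members (vertical axis) on plastic, unpatterned gelatin and patterned gelatin, with filled points for an adjusted p under 0.05. Notch1, Notch2, Notch3, Hes1 and Heyl are filled on plastic, from -0.76 to -0.40, and no point on gelatin is filled.

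The change from day 4 to day 7 was higher on patterned gelatin than on plastic for 2 members, beside 11.8% of all genes. The difference in log2 fold change was 1.03 for Notch3 (SE 0.23, adjusted p = 0.0243) and 0.53 for Hes1 (SE 0.16, adjusted p = 0.0433). The call of Hes1 was lost without any 1 of 10 of the 12 libraries, and that of Notch3 without plastic day 4 replicate 2 or patterned day 4 replicate 1 or 3 (adjusted p = 0.0544 to 0.0739). Without plastic day 7 replicate 2, 5 members were called, and without patterned day 7 replicate 1, 4 were. For unpatterned gelatin against plastic edgeR called 0 members, beside 0.00% of all genes, with 4 at an unadjusted p under 0.05 and 0 called by DESeq2.

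At day 7, 5 members were higher on patterned gelatin than on plastic and none was lower, beside 23.8% of all genes. Notch3 stood at 183, 197 and 205 CPM on patterned gelatin and at 87.5, 152 and 115 CPM on plastic, without overlap, a log2 fold change of 0.70 (SE 0.16, adjusted p = 0.00828). Heyl stood at 34.4, 43.5 and 30.1 CPM against 21.3, 27.9 and 28.3 CPM (0.44, SE 0.12, adjusted p = 0.0170) and Dll1 at 67.0, 73.4 and 89.6 CPM against 50.6, 62.9 and 36.0 CPM (0.59, SE 0.18, adjusted p = 0.0232). Jag2 was higher by 0.37 (SE 0.12, adjusted p = 0.0303) and Hes1 by 0.32 (SE 0.11, adjusted p = 0.0476). With only the 6 libraries compared in the fit, none of these was called (adjusted p = 0.186 to 0.263) and 21 of all genes were. Leaving out 1 library gave 2 to 5 members, with 2 without plastic replicate 1 or patterned replicate 3 and 3 without plastic replicate 3 or patterned replicate 2. Vcam1, a surface marker of satellite and reserve cells, was also higher, at 78.1, 76.9 and 76.9 CPM on patterned gelatin and 33.6, 39.6 and 17.3 CPM on plastic (1.33, SE 0.19, adjusted p = 0.000503). Sdc4, another such marker, was higher by 0.59 (SE 0.10, adjusted p = 0.00199). Pax7, at 39.8, 41.8 and 28.4 CPM against 37.8, 48.2 and 23.1 CPM, did not differ by the test (-0.02, adjusted p = 0.956). Myf5, Cd34 and Spry1, markers of the same list that were present in every C2C12 library, are not described singly here. The summed level of the 8 markers of satellite and reserve cells was 276 to 334 TPM on patterned gelatin and 179 to 233 TPM on plastic. That of the fibroblast genes was 298 to 356 TPM on patterned gelatin and 191 to 269 TPM on plastic, also without overlap, and Ly6a and Col1a1 were higher by the test, 2 of 4 tested. The part of either list in the difference was not tested.

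Of the other comparisons between substrates, Hes1 alone was called. On unpatterned gelatin at day 7 it stood at 35.7, 39.1 and 38.5 CPM against 29.3, 28.2 and 21.5 CPM on plastic, a log2 fold change of 0.50 (SE 0.11, adjusted p = 0.0206), as 1 of 10 members beside 3.46% of all genes. This call was lost without plastic replicate 3 or unpatterned replicate 2 or 3, and without plastic replicate 2 there were 3 calls. The sums of the satellite and reserve cell markers (251 to 259 TPM) and of the fibroblast genes (322 to 415 TPM) on unpatterned gelatin also lay above those on plastic, and their part was not tested. Between patterned and unpatterned gelatin at day 7 edgeR called 0 members, beside 0.539% of all genes, with 3 at an unadjusted p under 0.05 and 0 called by DESeq2. At day 4, edgeR called 0 members between patterned and unpatterned gelatin (0.00673% of all genes, 1 member at an unadjusted p under 0.05, 1 called by DESeq2). It called 0 between patterned gelatin and plastic (3.55% of all genes, 1 at an unadjusted p under 0.05, 0 by DESeq2) and 0 between unpatterned gelatin and plastic (7.88% of all genes, 4 at an unadjusted p under 0.05, 1 by DESeq2). The gene that DESeq2 called in both cases was Hes1, which lay at 42.2, 37.4 and 51.4 CPM on unpatterned gelatin, at 35.4, 34.6 and 35.1 CPM on plastic and at 30.8, 29.6 and 30.8 CPM on patterned gelatin at day 4. With only the 6 libraries compared in the fit, edgeR called 3 members for patterned gelatin against plastic at day 4 (Hes6, Hes1 and Notch3, all lower) and 5 for unpatterned gelatin against plastic (Notch1, Notch2, Notch3 and Hes6 lower and Hes1 higher).

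Between day 4 and day 7 in primary cells no member was called by edgeR, beside 0.00% of all genes, with 3 at an unadjusted p under 0.05 and 0 called by DESeq2. Notch3 lay at 32.1, 26.6 and 12.1 CPM at day 7, Notch2 at 91.6, 83.6 and 50.3 CPM, and Hes1 at 19.7, 16.2 and 9.65 CPM. Each overlapped the range of day 4. Hey1 stood at 1.46, 1.16 and 1.31 CPM at day 7, and so below its 3 day 4 libraries (log2 fold change -0.83, SE 0.32, adjusted p = 0.999).

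Primary replicate 3 stood apart from the other primary libraries after day 0 for most members, and for Dll1 and Hey1 at day 0. Heyl stood at 4.91, 3.71 and 0.123 CPM in replicates 1, 2 and 3 at day 7, and replicate 3 was also lowest at both days for Notch1, Notch2, Notch3, Hes1, Jag1 and Jag2. At day 0 replicate 3 lay within the range of the other replicates for Notch2 and Notch3 and above both for Notch1, Hes1, Jag1, Hes6 and Hey1 (9.46 CPM against 4.79 and 4.99 CPM). It was lowest for Dll1 (37.4 CPM against 52.7 and 60.8 CPM), Jag2 and Heyl. The satellite cell markers Pax7 (28.9, 22.2 and 7.19 CPM at day 4), Vcam1 (21.7, 15.1 and 4.09 CPM) and Sdc4 (171, 179 and 81.9 CPM) had the same order of replicate 3 below the others, at day 4 and at day 7. So did Myog, the differentiation factor myogenin, at 730, 710 and 386 CPM at day 4, and replicate 3 already held the lowest Myog of day 0 (538, 543 and 218 CPM). At day 0 it held the highest level of the mural gene Rgs5 (50.7, 56.3 and 147 CPM). The part of these differences between cultures in the Notch values was not tested. Without all 3 libraries of replicate number 3, a choice made after seeing the data, the same 7 members fell from day 0 to day 4, with Notch3 at -1.51 (adjusted p = 0.000539), Notch2 at -0.90 (adjusted p = 0.000501) and Hes1 at -1.85 (adjusted p = 2.26e-05).

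**Figure D5:**
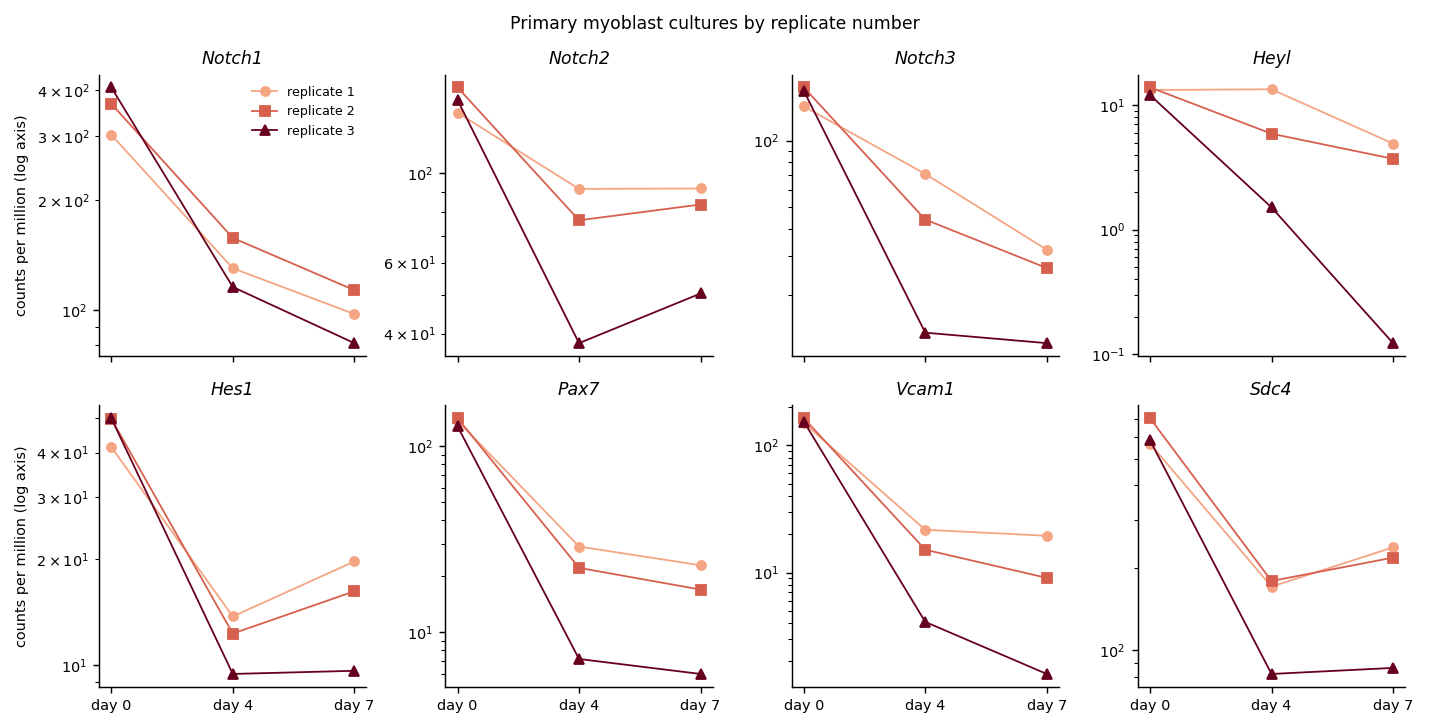
CPM (vertical axes, logarithmic and set separately for each gene) of 5 members and 3 satellite cell markers at days 0, 4 and 7 (horizontal axis) in primary replicates 1, 2 and 3. Replicate 3 is lowest at days 4 and 7 in each panel, down to 0.123 CPM for Heyl.

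Over the 10 groups, the mean levels followed different orders from gene to gene. Notch1 was highest in primary myoblasts at day 0 (mean 359 CPM), the next group being C2C12 myoblasts (150 CPM), and 8 of its 9 pairs of neighbouring groups overlapped in their libraries. Notch2, Notch3 and Hey1 were highest in C2C12 myoblasts (480, 262 and 16.6 CPM), each above the next group without overlap, and Dll1 was highest in C2C12 cells on patterned gelatin at day 7 (76.7 CPM). The primary groups of days 4 and 7 held the lowest 2 means for Notch2, Notch3, Dll1, Hes1, Hey1 and Heyl. For Jag1 all 9 pairs of neighbours overlapped, and for Dll1, Hes6 and Heyl 7 of 9 did.

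The genes whose group means of log2 CPM followed each member most closely over the 10 groups were sought among the 11600 genes whose average log2 CPM reached 1. These correlations (Pearson) describe 10 groups that share cell types and days. For Notch3 they were Fgfr4 (r = 0.992), Ephb6 (0.989) and Nynrin (0.987), for Notch2 Bcr (0.994), Numa1 and Nipsnap3b, and for Notch1 Zfp553 (0.988), Tle3 and Nacad. For Heyl they were Gpr153 (0.991), Vdr and Medag, for Hey1 Plekhg3 (0.990), Arpc1b and Arf3, for Hes1 Sox4 (0.977), Txlna and Dpysl3, and for Hes6 Ccnd3 (0.965), Wdsub1 and Fam3a. Among the ligand genes Jag2 was followed by Lmo4 (0.985), Armcx2 and Sdc3, Dll1 by genes that included Zfp623 (0.967) and Ephb2, and Jag1 by Tars (0.962), Cebpd and Kctd5. Among the members themselves Notch3 had an r of 0.931 with Heyl, 0.930 with Notch2, 0.926 with Hey1 and 0.914 with Hes1 over the 10 groups. Notch1 and Notch2 had one of -0.05, and the lowest was that of Hes6 and Hey1 (-0.67).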

How the data were processed

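The authors quantified each library with Kallisto (mm10; its version and transcript set: not given in the sources used here). They deposited estimated counts and TPM for 88198 transcripts. The submitters' processing notes name the same tool and build. For the values reported here, 86119 transcripts were matched to GENCODE M21 genes, summed per gene and rounded; the others held 0.698% to 0.860% of all counts in a library. The study's Sleuth test was not used here, and edgeR 4.0.16 in R 4.3.3 was used (TMM, filterByExpr, quasi-likelihood F tests) with fits of 21 C2C12, 9 primary and all 30 libraries. SE is the size of the log2 change over the root of its F statistic. Alternatives used DESeq2 1.42.0 and, on log2(TPM + 1), limma 3.58.1; tables used Python 3.11.15 and pandas 2.3.3. The test was checked on simulated data. The rule for named genes took all 10 members, up to 4 other pathway genes per comparison by adjusted p, up to 4 genes per marker list and the 3 most similar genes per member; 1 gene that this rule names is not reported here. The members, lists and motifs were chosen with earlier results of these data known. The p-values measure the spread between separate cultures. After removal of group means, primary libraries of the same replicate number correlated at 0.174 to 0.742 over 9 pairs. The labels do not say what the number marks. The main tests did not pair these libraries, and the replicate block was an alternative fit.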

Additional observations from a re-analysis of the deposited data

Results flagged for a closer look

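The change from day 0 to day 4 on patterned gelatin differed between primary and C2C12 cells by the test of the difference itself for Dll1 (-2.31), Jag1 (-1.47), Hes1 (-1.32), Notch1 (-1.03) and Hes6 (-0.82), as log2 fold change in primary less that in C2C12 cells. The change from day 4 to day 7 differed between patterned gelatin and plastic in C2C12 cells for Notch3 (1.03) and Hes1 (0.53), as log2 fold change on patterned gelatin less that on plastic. The comparison of cell types used a shared spread per gene, which understates that of primary cells. At day 0 the cell types also differed in the summed levels of differentiation factors and proliferation markers. The groups, of 3 libraries each, were not tested for single outlying libraries.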

How the results depend on the processing

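Counts of the 10 members called changed as follows. For C2C12 day 7 against day 4 on plastic (5), limma on log2(TPM + 1) gave 1, a fit of only the groups compared 3 and leaving out 1 library 2 to 6. On patterned gelatin (0), DESeq2 gave 1 and leaving out 1 library 0 to 2. At day 4, DESeq2 gave 1 for patterned against unpatterned gelatin (0), only the groups compared gave 3 for patterned gelatin against plastic (0), and for unpatterned gelatin against plastic (0) DESeq2 gave 1 and only the groups compared 5. At day 7, for patterned gelatin against plastic (5), limma gave 3, only the groups compared 0 and leaving out 1 library 2 to 5, and for unpatterned gelatin against plastic (1), DESeq2 gave 3, the replicate block 3, limma 0, only the groups compared 0 and leaving out 1 library 0 to 3. For the change from day 4 to day 7 on patterned gelatin less that on plastic (2), no filter on low counts gave 1, limma 1, only the groups compared 1, the replicate block 3, protein-coding transcripts only (chosen after seeing the data) 1 and leaving out 1 library 0 to 5. Why these counts moved was not tested. In the other comparisons every alternative stayed within 1.5 times the count.

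C2C12 libraries of the same replicate number had correlations of -0.176 to 0.212 over 63 pairs (median 0.0103), so no pairing was assumed there. With the replicate block, 8 members were called on plastic and 9 on patterned gelatin at day 4 against day 0, and 4 for patterned gelatin against plastic at day 7. Beside the calls named in the report, the block changed no other member call in primary cells. Over all members, comparisons and alternatives, 2576 of 2710 values kept their side of the threshold, 77 lost the call, 57 gained it and 0 turned direction among called values. Precision rests on 3 cultures per group, and Hey1, Heyl and Jag1 had few counts in primary cells.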
